A study of Mus musculus with 16 samples.

Results

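The Krueppel-like factors (KLFs) described here are 10 genes, Klf2, Klf3, Klf4, Klf5, Klf6, Klf7, Klf9, Klf10, Klf13 and Klf15, picked by symbol from the 47729 genes that had values in the neonatal mouse cochlea. They are a part of the KLF family, and they were chosen with earlier results of these data known. All 10 passed the filter on low values, as did 16994 genes in all. Expression was measured by RNA sequencing in 16 libraries of the cochlea at postnatal day 4, with 4 libraries in each of 4 groups. The mice carried GLAST-CreERT and Rpl22-HA, so that a tagged ribosomal protein is made in cells with GLAST-driven Cre activity after tamoxifen, and these mice are called control. DTR mice carried Lgr5-DTR in addition, which places the diphtheria toxin receptor under the Lgr5 gene, and diphtheria toxin then kills Lgr5-expressing supporting cells. By the study's methods both genotypes received diphtheria toxin and tamoxifen on the first postnatal day, whereas the sample labels state no treatment for the control libraries. Each replicate was a pool of cochleae from several mice. Of its homogenate, 5% was kept as input, which samples the whole dissected epithelium, and 95% went to immunoprecipitation of tagged ribosomes (IP).

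Reads counted on genes ranged from 35517482 to 41966310 in control input, from 30586938 to 34362992 in control IP, from 32764633 to 39158473 in DTR input and from 28089836 to 31119045 in DTR IP. Levels are CPM, in which every library is scaled to the same total of gene-assigned reads, and a count of 3 reads was worth between 0.0715 and 0.107 CPM. The lowest level of any of the 10 genes in any library was 11.4 CPM, for Klf2 in control input. Depth therefore did not set which of them could be detected.

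KLFs are transcription factors with zinc fingers at the C terminus that bind GC-rich and CACCC-containing DNA, and they differ mainly in the part of the protein that recruits cofactors. Klf2, Klf4, Klf5, Klf6 and Klf7 mostly activate through acetyltransferases such as p300. Klf3 represses through CtBP, and Klf9, Klf10 and Klf13 bind the Sin3a corepressor. Klf15 stands apart and is best known as a metabolic regulator that glucocorticoids induce. Several members are early responders to injury or growth factors, and others accompany exit from the cell cycle, so the family is of interest in an epithelium that loses supporting cells and in which neighbouring cells of the greater epithelial ridge (GER) divide.

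The labels check against the data as follows. Lgr5, the gene that carries the toxin receptor, had 63.6, 59.0, 66.1 and 64.4 CPM in control input and 17.9, 11.2, 15.1 and 19.6 CPM in DTR input. In the IP it had 39.3, 40.0, 35.5 and 31.4 CPM in control and 8.13, 9.47, 8.61 and 11.3 CPM in DTR. All DTR libraries lay below all control libraries, with log2 fold changes (LFC) of -2.004 ± 0.151 (SE) in input and -1.93 ± 0.15 in IP. Slc1a3, which encodes GLAST, was not enriched in the IP: its LFC was -0.20 ± 0.09 in control IP against control input, with the 4 IP libraries all below the 4 input libraries, and -0.27 ± 0.09 in DTR mice. Mki67, a marker of dividing cells, had an LFC of 1.32 ± 0.18 in DTR IP against control IP. In these bulk samples fewer cells of a type and less RNA per cell cannot be told apart.

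Of the 10 genes, 8 had an entry among the RefSeq promoter sequences for GRCm38.p6, and Klf5 and Klf10 had none. Klf10, which rose after damage in both input and IP, therefore has no window below. The 250 bases before each of the 8 starts were searched on both strands for the E-box CACGTG and the GC box GGGCGG. The E-box is the element bound by clock and Myc-type factors, and the GC box is a typical site of the KLF and SP proteins themselves. CACGTG stood in 3 of the 8 windows (Klf4, Klf6 and Klf15) and in 6.02% of all 32851 promoter windows of this length. GGGCGG stood in 7 of the 8, all but Klf9, and in 32.7% of all windows. The windows of Klf6, Klf9 and Klf15 are shown because these genes rose after damage in both input and IP, although the call for Klf9 in input was lost in edgeR and DESeq2, and that of Klf4 because it holds the same E-box and had no called change after damage. They read 5′ to 3′ on the strand of the gene, and capitals mark the E-box and the GC box, which appears as CCGCCC where it lies on the other strand.
Klf6, chr13:5861239-5861488 (+): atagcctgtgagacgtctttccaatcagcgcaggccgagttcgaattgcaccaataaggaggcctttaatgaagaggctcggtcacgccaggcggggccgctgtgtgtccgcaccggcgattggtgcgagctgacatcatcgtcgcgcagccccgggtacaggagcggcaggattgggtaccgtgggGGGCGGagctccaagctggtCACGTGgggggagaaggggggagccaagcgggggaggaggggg
Klf15, chr6:90462326-90462575 (+): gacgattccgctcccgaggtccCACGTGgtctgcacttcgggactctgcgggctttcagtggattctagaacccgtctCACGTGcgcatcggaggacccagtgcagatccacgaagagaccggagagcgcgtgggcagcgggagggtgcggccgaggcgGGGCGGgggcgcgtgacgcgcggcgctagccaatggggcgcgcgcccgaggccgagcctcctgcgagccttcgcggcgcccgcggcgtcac
Klf9, chr19:23140976-23141225 (+): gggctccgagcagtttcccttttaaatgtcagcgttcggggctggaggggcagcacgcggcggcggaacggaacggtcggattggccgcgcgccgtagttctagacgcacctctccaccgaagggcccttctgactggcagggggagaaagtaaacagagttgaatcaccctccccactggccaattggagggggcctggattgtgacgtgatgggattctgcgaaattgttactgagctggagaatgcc
Klf4, chr4:55532476-55532725 (-): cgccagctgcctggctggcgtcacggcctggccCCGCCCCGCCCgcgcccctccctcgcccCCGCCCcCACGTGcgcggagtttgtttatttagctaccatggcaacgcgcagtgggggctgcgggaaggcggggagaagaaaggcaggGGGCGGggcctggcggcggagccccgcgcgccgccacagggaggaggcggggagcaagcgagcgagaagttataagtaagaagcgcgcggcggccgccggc
Klf15 held CACGTG at 2 places, beginning 228 and 172 bases before the start. The single match in Klf6 began 43 bases before the start, and that in Klf4 began 182 bases before it. A TATAAA sequence was in 0 of the 8 windows and in 12.4% of all windows, and the cAMP response element TGACGTCA was in 0 of the 8 and 1.55% of all. The shorter TGACG, which that element contains, was in 5 of the 8 (Klf2, Klf4, Klf9, Klf13 and Klf15) and in 17.8% of all windows. The CACCC sequence, another typical KLF site, was in 6 of the 8, all but Klf4 and Klf6, and in 52% of all windows, and a CArG box was in 0 of the 8 and in 1.47% of all. The 8 windows had a GC content from 59.2% (Klf7) to 78.4% (Klf3), and the shares of all windows were not matched for it. These are matches of letters and not measured binding sites.

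The 10 mRNAs were compared with each other as CPM per kb of exonic length. In control input Klf10 was the highest at 22.7 ± 3.51 CPM per kb (SD, n = 4), followed by Klf9 at 15.5 ± 0.84, and both steps in this order exceeded the spread of the libraries. Klf3 (11.7) and Klf13 (11.5) came next and their libraries overlapped, and Klf7 was the lowest at 3.50 ± 0.41. The order was different in control IP. There Klf9 (46.9 ± 3.58) and Klf13 (44.1 ± 2.38) stood first with overlapping libraries, Klf3 followed at 33.0 ± 6.18, and Klf10 was at 22.2 ± 4.74. From Klf3 down to Klf7 (8.37 ± 1.26) each gene of control IP overlapped the next one, so neighbours in that order did not differ beyond their spread. In DTR input Klf10 stood above all others at 50.5 ± 12.5 CPM per kb, with Klf6 (20.6) and Klf9 (20.5) next. In DTR IP Klf9 was at 65.2 ± 13.0, each gene from Klf9 down to Klf6 overlapped the next, and Klf5 was the lowest at 5.74 ± 0.84. The plot of length-scaled levels shows these orders side by side.

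**Figure D1:**
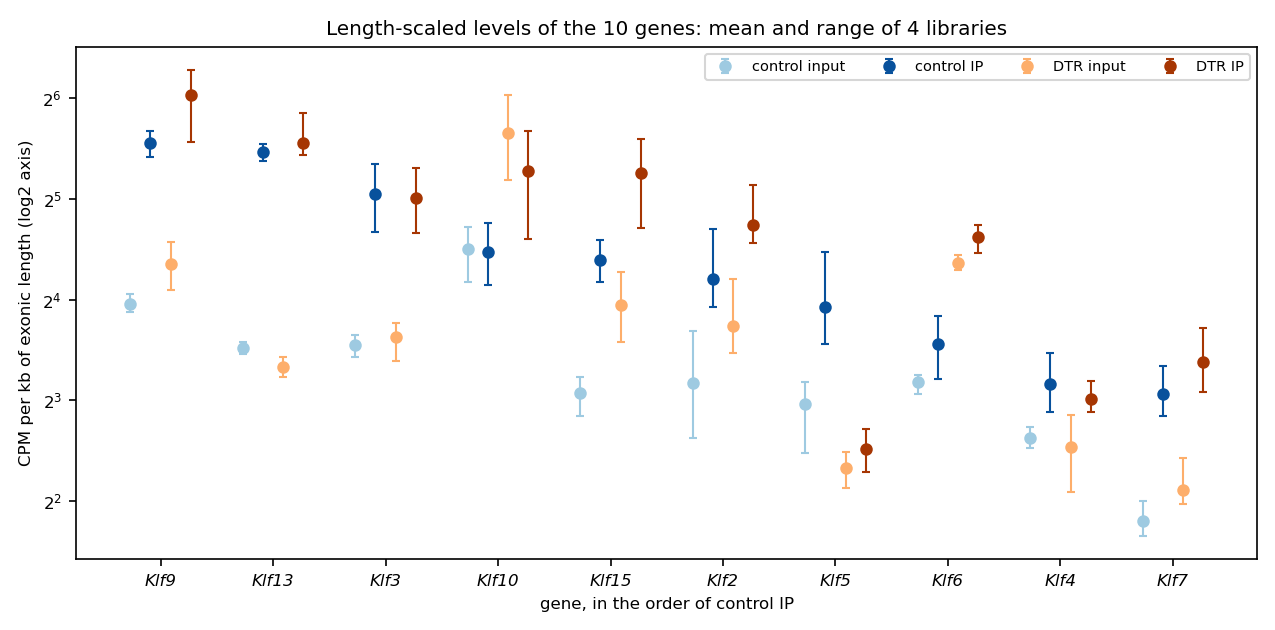
Mean CPM per kb of exonic length (log2 axis) for each gene in the 4 groups, with bars from the lowest to the highest of 4 libraries. Klf9 and Klf13 have the highest means in both IP groups, and in DTR IP each of them overlaps Klf10 and Klf15. Klf10 has the highest mean in both input groups, while Klf5 falls from 15.2 in control IP to 5.74 in DTR IP.

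Summed over the 10 genes, KLF mRNA of the control made up 555 ± 26.1 CPM in input and 1341 ± 84.8 CPM in IP, and that of DTR mice 761 ± 70.3 CPM in input and 1595 ± 192 CPM in IP (SD, n = 4). The first question was which of these mRNAs were enriched on tagged ribosomes. In control IP against control input 9 of the 10 genes were higher at an adjusted p under 0.05 (limma) and 0 were lower, where 19.3% of all tested genes were higher and 20.7% lower. edgeR and DESeq2 on the read counts also gave 9 higher and 0 lower. The median LFC of the 10 genes was 1.12, against -0.00 over all tested genes. In DTR IP against DTR input 7 were higher and 0 lower, where 18.6% of all genes were higher and 20.5% lower, with a median LFC of 1.10 against -0.03. With the pool as a block 8 were higher there, Klf6 being added, and 1, Klf10, was lower. Of the 16994 tested genes 3830 were then higher and 4353 lower. At an unadjusted p under 0.05, 9 of the 10 passed in control and 8 in DTR, against 47.5% and 46.9% of all tested genes. Groups did not overlap for 8 genes in each of these comparisons, all higher in IP, where 17.2% and 16.7% of all tested genes were higher without overlap. Overlap was judged on the deposited CPM. On the normalized scale Klf4 overlapped in DTR mice (separation 0.995), and Klf6 did not overlap in control mice (1.04). Separation here is the lowest library of the higher group divided by the highest library of the lower group.

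**Figure D2:**
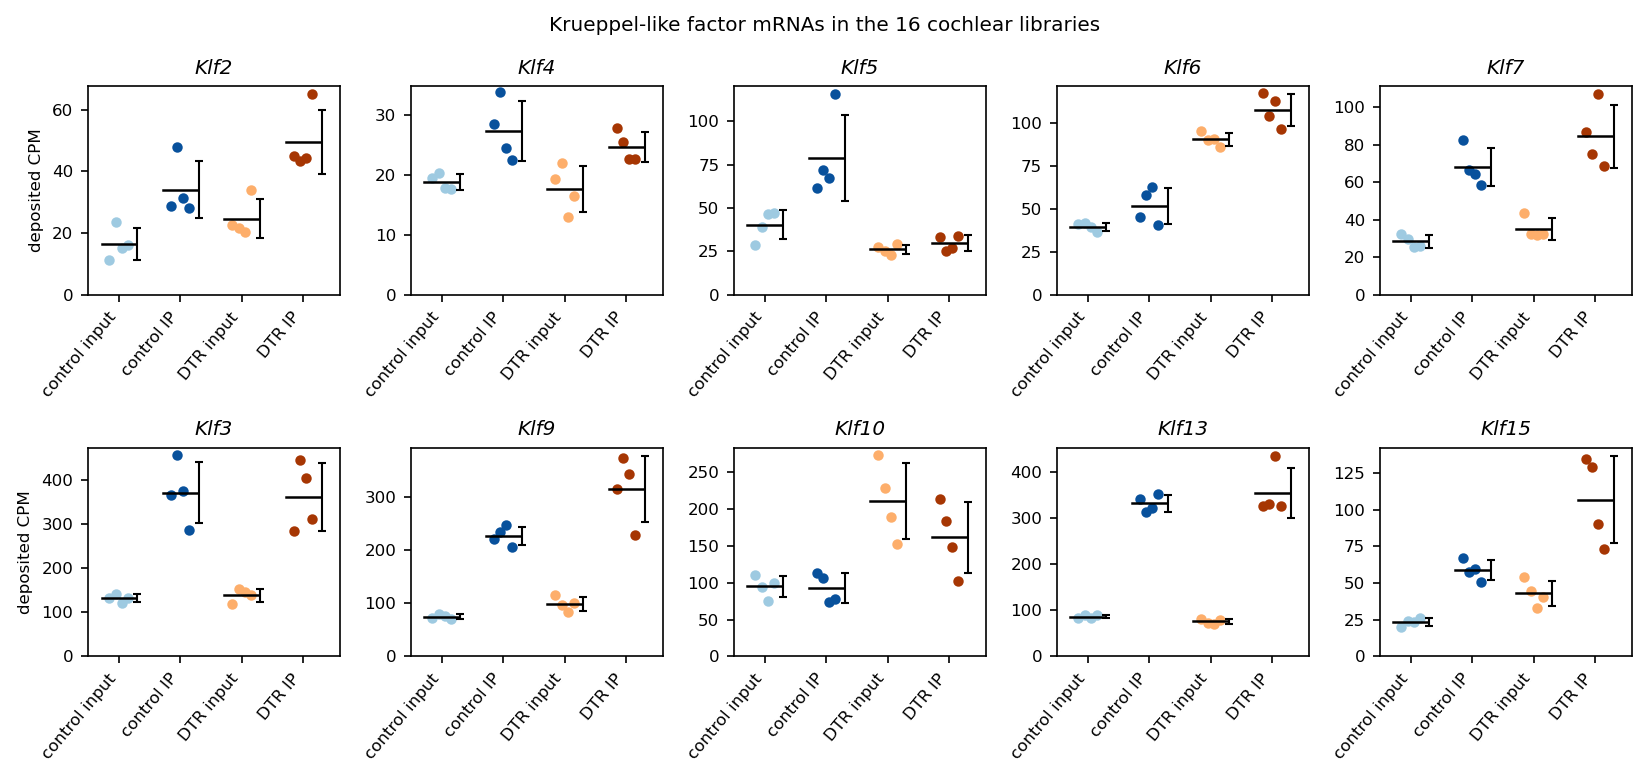
Deposited CPM of each gene in every library (points, 4 for each group), with the group mean (line) and SD (bar beside it). Klf2, Klf3, Klf4, Klf7, Klf9, Klf13 and Klf15 separate IP from input in both genotypes, Klf6 separates DTR from control in both fractions, and Klf5 is at or below 34.1 CPM in all 8 DTR libraries.

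Klf13, a Sin3a-binding factor studied mostly in lymphocytes and heart, had the largest enrichment. It had 83.3, 90.3, 82.6 and 88.9 CPM in control input and 341, 313, 322 and 352 CPM in control IP. The lowest IP library was thus 3.59 times the highest input library on the normalized scale. In DTR it had 81.0, 71.7, 70.8 and 79.0 CPM in input and 327, 330, 435 and 327 CPM in IP. The LFC was 1.96 ± 0.10 in control and 2.28 ± 0.10 in DTR, and the DTR value but not the control value met the stricter rule that the study used for enrichment, an LFC of at least 2 with a separation above 1.5, which 0.730% of all tested genes met as higher in DTR and 0.789% in control. The control value lay close to that limit and was above 2 in edgeR and, at 2.09, with the length and GC correction and the replicate block. Whether the enrichment itself differed between the genotypes is the same test as whether the change after damage differed between IP and input, and there Klf13 had a difference of 0.32 ± 0.14 with a limma adjusted p of 0.902. Without DTR IP replicate 3 that difference was 0.21.

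Klf9, another Sin3a-binding factor, induced by glucocorticoid and thyroid hormone, was close behind. It had 72.3, 79.9, 75.2 and 70.8 CPM in control input and 220, 232, 246 and 205 CPM in control IP. No IP library came near an input library, and the LFC was 1.61 ± 0.12 in control and 1.72 ± 0.12 in DTR. Klf3, the CtBP-binding repressor, ranged from 121 to 141 CPM in control input and from 286 to 456 CPM in control IP, with an LFC of 1.52 ± 0.15, and its LFC in DTR was 1.44 ± 0.15. Klf15 ranged from 20.1 to 26.2 CPM in control input and from 50.4 to 67.1 CPM in control IP, with LFCs of 1.30 ± 0.16 in control and 1.27 ± 0.16 in DTR. Klf7, an activator best known from developing sensory neurons, ranged from 25.6 to 32.5 CPM in control input and from 58.4 to 82.6 CPM in control IP. Its enrichment was 1.23 ± 0.14 in both genotypes, without overlap between IP and input.

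Among the remaining activators the enrichment was smaller. Klf2, known from endothelium and lymphocytes, had 11.4, 23.8, 15.1 and 16.2 CPM in control input and 28.9, 48.0, 31.5 and 28.1 CPM in control IP. Replicate 2 was the highest in both fractions of the control, and the groups did not overlap. Its LFC was 1.02 ± 0.21 in control and 0.97 ± 0.21 in DTR. Klf4, a differentiation factor of surface epithelia and one of the reprogramming factors, ranged from 17.6 to 20.3 CPM in control input and from 22.5 to 33.8 CPM in control IP, with LFCs of 0.49 ± 0.14 in control and 0.45 ± 0.14 in DTR. The call for Klf4 in DTR was lost when DTR input replicate 3 was left out (LFC 0.33, limma adjusted p = 0.0713) and when the DTR libraries were fitted alone (adjusted p = 0.0539).

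Klf6 and Klf10 were the least enriched of the 10 in the undamaged cochlea. Klf6, a GC-box binding activator that rises early after tissue injury, had 41.4, 41.8, 39.3 and 36.8 CPM in control input and 45.3, 58.3, 62.8 and 40.6 CPM in control IP. IP replicates 1 and 4 lay close to the input libraries, and replicate 4 lay among them. Its LFC of 0.35 ± 0.11 passed the threshold (limma adjusted p = 0.0191) but not without control IP replicate 2 (0.0574), control IP replicate 3 (0.0854) or control input replicate 4 (0.0594), and not with the control libraries fitted alone (0.0507). In DTR its LFC was 0.25 ± 0.11 (limma adjusted p = 0.0797, and 0.0448 with the pool as a block). Klf10, induced early by TGF-beta, had an LFC of -0.02 ± 0.20 in control. In DTR its LFC was -0.35 ± 0.20, with an adjusted p of 0.189 in limma and 0.0064 with the pool as a block. That LFC was -0.15 without DTR IP replicate 4, -0.22 without DTR input replicate 1 and -0.50 without DTR IP replicate 1.

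Markers of most other cell types were lower in the same IP libraries. In control IP against control input 8 of 9 endothelial markers, 10 of 10 macrophage markers and 7 of 8 hair cell markers were lower. The hair cell marker Atoh1 was higher. Of all tested genes 20.7% were lower and 19.3% higher in that comparison. Summed endothelial markers, of which Emcn was the most abundant, had a mean of 336 CPM in control input and 125 CPM in control IP. Summed macrophage markers, led by Csf1r, had 136 and 29.9 CPM, and none of the markers in any list was at 0 in all libraries of a group. The lists for Schwann cells (5 of 7 lower), otic mesenchyme (4 of 7), neurons (3 of 5) and erythroid cells (all 4 tested) had lower markers as well and 0 higher ones. Of 14 GER and supporting cell markers 6 were higher and 4 lower, and their sum averaged 21103 CPM in input and 28163 CPM in IP. Of that sum Tectb alone made up 9256 CPM in input and 16506 CPM in IP. In DTR IP against DTR input all 9 endothelial, all 10 macrophage and all 4 tested erythroid markers were lower, as were 6 of 8 hair cell markers (1 higher), 5 of 7 Schwann cell markers (1 higher) and 1 of 5 neuronal markers. There 1 of 7 mesenchymal markers was higher and 0 were lower (2 had an unadjusted p under 0.05 in limma). The GER and supporting cell list had 3 of 14 markers higher and 4 lower. Of all tested genes 18.6% were higher and 20.5% lower in this comparison, and 46.9% had an unadjusted p under 0.05. The part of these cell types in the KLF enrichment was not tested.

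The second question was how the KLFs changed after ablation of Lgr5-expressing cells. In DTR IP against control IP 4 of the 10 genes were higher (Klf6, Klf9, Klf10 and Klf15) and 1 was lower (Klf5), at an adjusted p under 0.05. Of all tested genes 8.44% were higher and 7.30% lower. In DTR input against control input the same 4 genes were higher and Klf5 was lower, where 7.17% of all tested genes were higher and 5.21% lower. In input Klf9 was not called in edgeR or DESeq2, which gave 3 higher and 1 lower, nor on unnormalized CPM, under median centring or with no filter, and with no filter Klf5 was not called either. The median LFC of the 10 genes was 0.39 in IP and 0.33 in input, against -0.00 and -0.02 over all tested genes. At an unadjusted p under 0.05, 6 of the 10 passed in each fraction, against 28.4% of all tested genes in IP and 23.2% in input. In IP 2 genes were higher and 1 was lower without overlap between groups, where 10.5% and 6.54% of all genes were, and in input 4 were higher and 1, the uncalled Klf13, was lower, where 11.6% and 7.73% were. The comparisons in IP and in input use different libraries of the same pools, so they are not independent.

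**Figure D3:**
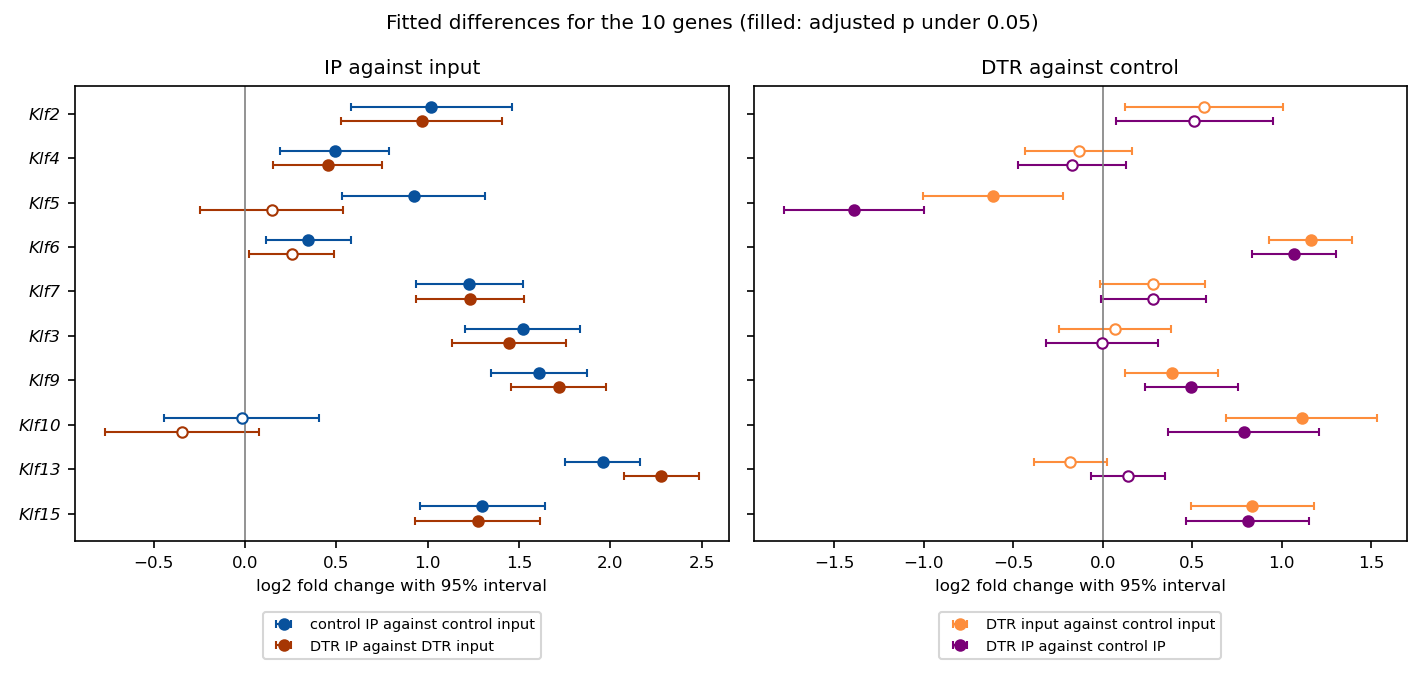
Log2 fold changes with 95% intervals for IP against input (left, control and DTR mice) and for DTR against control (right, input and IP). Klf13 has the largest enrichment, Klf10 lies at -0.02 in control and -0.35 in DTR mice on the left, and on the right Klf5 is the one gene with both intervals below 0.

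Klf6 had the largest increase in both fractions. In input it had 41.4, 41.8, 39.3 and 36.8 CPM in control and 95.4, 90.2, 90.8 and 86.2 CPM in DTR. In IP it had 45.3, 58.3, 62.8 and 40.6 CPM in control and 118, 104, 113 and 96.8 CPM in DTR. Every DTR library exceeded every control library in both fractions. The LFC was 1.16 ± 0.11 in input (limma adjusted p = 5.7e-07) and 1.07 ± 0.11 in IP (limma adjusted p = 1.5e-06), which is 2.24-fold and 2.10-fold. Klf6 was the one member above the study's stricter rule for a rise after damage (LFC of at least 1 and separation above 1.5) in both fractions, a rule that 1.34% of tested genes met as higher in input (1.00% as lower) and 1.12% in IP. Its separation was 2.02 in input and 1.59 in IP, the latter close to the limit of 1.5. The LFC in IP fell below the limit of 1 in edgeR (0.987), in DESeq2 and without control IP replicate 4 (0.995).

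Klf10, the TGF-beta-inducible member, rose about as much in input. It had 110, 94.3, 75.2 and 99.9 CPM in control input and 274, 228, 189 and 152 CPM in DTR input. The groups did not overlap, and the LFC was 1.11 ± 0.20 (limma adjusted p = 0.00077). In IP it had 113, 106, 74.0 and 77.6 CPM in control and 213, 184, 148 and 102 CPM in DTR. There replicate 4 of DTR lay below 2 control libraries, and the LFC was 0.79 ± 0.20 (limma adjusted p = 0.0110).

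Klf15 rose by similar amounts in both fractions. It had 20.1, 24.0, 23.3 and 26.2 CPM in control input and 53.9, 44.5, 33.3 and 40.8 CPM in DTR input. The IP values were 67.1, 57.8, 59.7 and 50.4 CPM in control and 135, 129, 90.5 and 73.3 CPM in DTR. The groups did not overlap in either fraction, although DTR IP replicate 4 was only slightly above control IP replicate 1. The LFC was 0.84 ± 0.16 in input (limma adjusted p = 0.0016) and 0.81 ± 0.16 in IP (limma adjusted p = 0.0018).

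Klf9 rose less. In IP it had 220, 232, 246 and 205 CPM in control and 313, 373, 343 and 228 CPM in DTR, so that 3 of 4 DTR libraries exceeded all control libraries and replicate 4 did not. The LFC in IP was 0.49 ± 0.12 (limma adjusted p = 0.0097). In input it had 72.3, 79.9, 75.2 and 70.8 CPM in control and 114, 96.5, 82.6 and 101 CPM in DTR. The input groups did not overlap, and the LFC was 0.39 ± 0.12 with a limma adjusted p of 0.0489, just under the threshold. That call was lost when any input library other than DTR input replicate 3 was left out, with adjusted p between 0.0690 and 0.165. It was kept without DTR input replicate 3 (0.0336). It was also lost on unnormalized CPM (0.0601), under median centring (0.0567), with no filter on low values (0.0912), in edgeR (0.0647) and in DESeq2 (0.0517). With the replicate block the call was kept (limma adjusted p = 0.0230), as with the length and GC correction added (0.0136). It was also kept with the input libraries fitted alone (0.0187) and, just under the threshold, with pseudocounts of 0.1 and 1 and a filter of 2 CPM.

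Klf5, an activator of dividing epithelial cells such as those of the intestinal crypt, was the one member that fell. In IP it had 61.4, 71.9, 67.5 and 116 CPM in control and 33.1, 25.5, 26.8 and 34.1 CPM in DTR. All DTR libraries were below all control libraries, and control replicate 4 was well above the other control libraries. The LFC was -1.39 ± 0.19 (limma adjusted p = 3.1e-05), that is 2.63-fold lower, with a separation of 1.77, and it met the stricter rule as 1.34% of all tested genes did in this direction. Without control IP replicate 4 the LFC was -1.17. In input Klf5 had 29.0, 39.2, 46.4 and 47.3 CPM in control and 27.4, 25.2, 22.8 and 29.1 CPM in DTR. Control input replicate 1 lay among the DTR libraries, though not on the normalized scale (separation 1.05), and the LFC was -0.62 ± 0.19 (limma adjusted p = 0.0368). This call was lost with no filter on low values (0.0835). Leaving out 1 of 6 libraries also lost it (adjusted p from 0.0693 to 0.117). These were control input replicates 2, 3 and 4 and DTR input replicates 1, 2 and 3. The call was kept in edgeR (adjusted p = 0.0359) and DESeq2 (0.0107). In limma it was kept with the replicate block (0.0056) and with the input libraries fitted alone (0.0181).

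On tagged ribosomes the LFC of Klf5 in IP against input was 0.92 ± 0.19 in control, without overlap, and 0.15 ± 0.19 in DTR, where the groups overlapped (limma adjusted p = 0.577). The DTR value was 0.066 without DTR IP replicate 4 and 0.25 with the length and GC correction and the block. The difference between the changes was -0.78 ± 0.26, with an interval from -1.33 to -0.22, an unadjusted p of 0.0087 and a limma adjusted p of 0.636. With the pool as a block the adjusted p was 0.0796. The difference did not pass the threshold over all tested genes. Among the 10 genes 0 had a called difference between IP and input in limma, edgeR or DESeq2, and 2 (Klf5 and Klf13) had an unadjusted p under 0.05 in limma. For Klf13 that p was 0.063 without DTR IP replicate 3, 0.157 in edgeR and 0.119 in DESeq2. Of all tested genes 0.0118%, which is 2 genes, were called and 5.12% had an unadjusted p under 0.05.

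**Figure D4:**
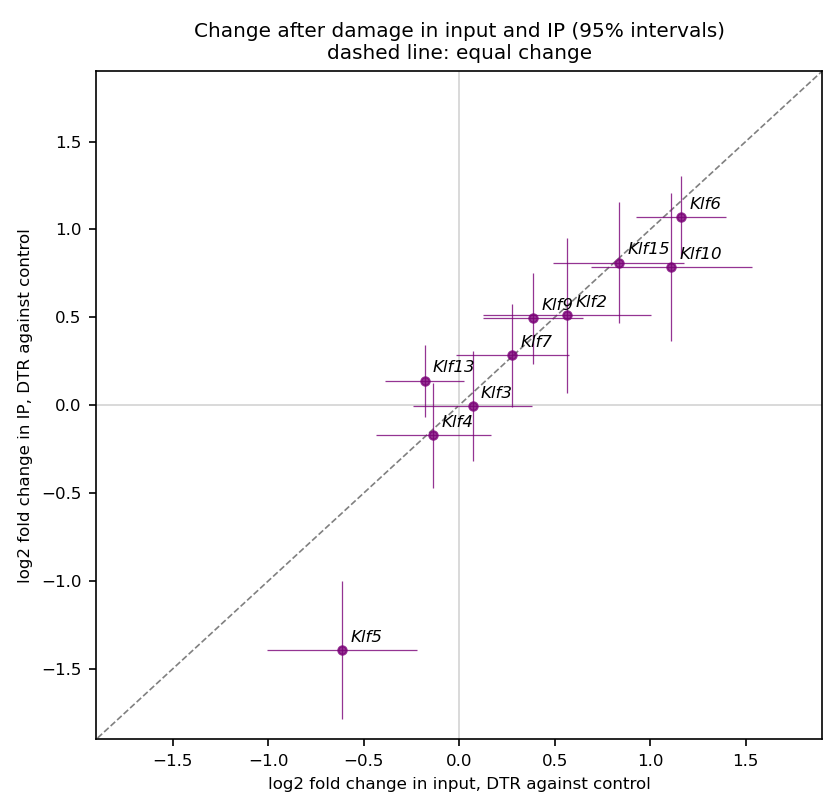
Log2 fold change of DTR against control in input (horizontal) and in IP (vertical) for each gene, with 95% intervals and a dashed line of equal change. Klf6, Klf10, Klf15, Klf9 and the uncalled Klf2 (0.57 and 0.51) lie to the upper right and Klf5 lies to the lower left below the line, at -0.62 in input and -1.39 in IP.

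The other 5 genes had no called change after damage. Klf2 had 22.7, 21.7, 20.4 and 34.0 CPM in DTR input and 45.0, 43.5, 44.5 and 65.0 CPM in DTR IP. Its LFC was 0.57 ± 0.21 in input (limma adjusted p = 0.0953) and 0.51 ± 0.21 in IP (0.112), and the control and DTR groups overlapped because of control replicate 2. With replicate as a block the adjusted p was 0.0281 in input and 0.0385 in IP, and leaving out replicate 2 of the control gave 0.0285 (LFC 0.74) and 0.0486 (LFC 0.66). Without replicate 4 of DTR the LFC was 0.42 in input (adjusted p = 0.253) and 0.35 in IP (0.299), and without replicate 1 of the control it was 0.40 (0.293) and 0.43 (0.257). Klf7 had an LFC of 0.28 ± 0.14 in each fraction, with intervals from -0.02 to 0.57 in input and from -0.01 to 0.58 in IP. It was 0.18 in input without DTR input replicate 1 and 0.16 in IP without DTR IP replicate 3. Klf3 had LFCs of 0.07 ± 0.15 in input and -0.01 ± 0.15 in IP, and the interval in IP ran from -0.32 to 0.31. With 1 library left out its LFC ran from 0.023 to 0.15 in input and from -0.12 to 0.11 in IP. Klf4 had LFCs of -0.13 ± 0.14 in input and -0.17 ± 0.14 in IP. The input value was -0.015 without DTR input replicate 3 and -0.26 without DTR input replicate 2, and the IP value was -0.096 without control IP replicate 2. Klf13 had an LFC of 0.14 ± 0.10 in IP and -0.18 ± 0.10 in input, where its DTR libraries lay just below the control libraries without overlap (limma adjusted p = 0.282). The IP value was 0.032 without DTR IP replicate 3 and 0.019 in edgeR.

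Markers of other cell types were followed in the same comparisons. In DTR IP against control IP 6 of 10 macrophage markers, 2 of 9 endothelial markers and 5 of 7 mesenchymal markers were higher, and 9 of 14 GER and supporting cell markers were lower, where 8.44% of all tested genes were higher and 7.30% lower. The summed macrophage markers had means of 136 and 240 CPM in the inputs of control and DTR mice, and of 29.9 and 65.6 CPM in their IPs. The summed GER and supporting cell markers averaged 28163 CPM in the IP of the control and 18828 CPM in that of DTR mice, of which Tectb made up 16506 and 9289 CPM. In input 6 of 10 macrophage markers, 1 of 9 endothelial, 1 of 7 mesenchymal and 2 of 14 GER and supporting cell markers were higher, and 7 of the 14 were lower, where 7.17% of all tested genes were higher and 5.21% lower. Schwann cell markers were lower in part (2 of 7 in IP and 4 of 7 in input, with 1 higher in IP), 3 of 8 hair cell markers were higher and 1 was lower in IP, with 1 lower in input, and 0 of 5 neuronal and 0 of 4 tested erythroid markers passed in limma (at an unadjusted p under 0.05, 0 neuronal markers, and 2 erythroid markers in IP and 4 in input). The part of these cell types in the KLF changes was not tested.

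The neuronal markers also differed between replicates of a group. Their sum was 626, 579, 168 and 139 CPM over the 4 control input libraries and 541, 317, 169 and 62.4 CPM over the 4 DTR input libraries. Replicates 1 and 2 were thus higher than replicates 3 and 4 in both genotypes. The part of neuronal RNA in the KLF values was not tested.

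The rest of the KLF and SP family was followed as a list. Values were given for 16 of 17 genes, and 11 passed the filter. Klf14, Klf17, Sp6, Sp8 and Sp9 did not, with at most 0.538 CPM in any library. In control IP against control input 4 of the 11 were higher, among them Klf8 (1.11 ± 0.24), Sp1 (1.07 ± 0.13) and Klf16 (1.02 ± 0.16), and 1 was lower, where 19.3% of all tested genes were higher and 20.7% lower. The median LFC was 0.26. In DTR IP against DTR input 3 were higher and 3 lower (18.6% and 20.5% of all), led by Sp1 (1.13 ± 0.13), Sp2 (-0.79 ± 0.12) and Klf16 (0.75 ± 0.16). After damage Sp5, a Wnt target, was lower in IP (LFC -0.66 ± 0.20, limma adjusted p = 0.0278) and 0 were higher, with 3 of the 11 at an unadjusted p under 0.05 (28.4% of all tested genes). In input Klf11, the closest relative of Klf10, was higher (LFC 0.69 ± 0.19, limma adjusted p = 0.0206), with 49.0, 36.8, 27.0 and 35.8 CPM in control and 65.8, 62.0, 58.4 and 52.6 CPM in DTR, and Sp2 was higher (0.46 ± 0.12), so that 2 of the 11 were higher and 0 lower, beside 7.17% and 5.21% of all tested genes.

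Genes that act on KLFs or with them were also followed. Of 14 upstream genes (the MEK5, ERK5 and MEF2 genes that induce Klf2 and Klf4, corticoid and thyroid hormone receptors, and TGF-beta receptors and Smads) 3 were higher and 0 lower in DTR IP against control IP, where 8.44% of all tested genes were higher and 7.30% lower. These were Mef2c (LFC 0.56 ± 0.13), Nr3c1 (0.33 ± 0.11), which encodes the glucocorticoid receptor, and Tgfbr2 (0.33 ± 0.10). In input 0 of the 14 passed in limma and 2 had an unadjusted p under 0.05 (23.2% of all tested genes). In control IP against control input 3 of the 14 were higher and 2 lower (19.3% and 20.7% of all), and those higher were Nr3c1 (LFC 0.80 ± 0.11), Mef2d (0.75 ± 0.09) and Thra (0.57 ± 0.10). Between DTR IP and DTR input 4 were higher in IP and 1 lower (18.6% and 20.5% of all), led by Nr3c1 (0.93 ± 0.11), Thra (0.62 ± 0.10) and Smad4 (-0.51 ± 0.15). Of 12 protein partners 2 were higher and 0 lower after damage in both IP and input, where 8.44% and 7.17% of all tested genes were higher, and these were the acetyltransferases Ep300 (0.54 ± 0.13 in IP and 0.56 ± 0.13 in input) and Crebbp (0.54 ± 0.12 and 0.51 ± 0.12). Of the partners, in control IP against control input 3 were higher and 2 lower, and in DTR IP against DTR input 3 were higher and 3 lower, beside the same shares of all genes as above. Sin3a, the corepressor of Klf9, Klf10 and Klf13, was lower in IP than in input (LFC -0.83 ± 0.12 in each genotype), and Fbxw7, a ubiquitin ligase subunit that targets Klf5, was higher (1.16 ± 0.18 in control and 0.98 ± 0.18 in DTR), as was the acetyltransferase Kat2b (0.68 ± 0.16 and 0.82 ± 0.16).

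Of 12 reported targets of the KLFs 2 were higher and 1 lower in DTR IP against control IP, where 8.44% of all tested genes were higher and 7.30% lower. An unadjusted p under 0.05 was reached by 5 of the 12 and by 28.4% of all tested genes, and the median LFC of the 12 was 0.06. The genes that were higher were Tagln, a smooth muscle gene linked to Klf4 and Klf5 (LFC 0.98 ± 0.21), and Cdkn1a, a cell cycle inhibitor linked to Klf4 and Klf6 (0.32 ± 0.11). Thbd, an endothelial target of Klf2, was lower in IP (-0.71 ± 0.17) and in input (-0.74 ± 0.17), and Cdkn1a was also higher in input (0.48 ± 0.11). Tagln was low, with 1.85 ± 0.86 CPM in the control IP libraries and 4.30 ± 0.47 CPM in those of DTR mice (SD, n = 4). In input Tagln was not called, with 2.92 ± 0.26 CPM in control and 4.96 ± 0.42 CPM in DTR. It was among the 4 of the 12 that were higher in input without overlap, and 1 was lower (11.6% and 7.73% of all tested genes). Among the 12 targets 4 were higher in control IP against control input and 3 lower (19.3% and 20.7% of all tested genes), led by Smad7 (1.54 ± 0.12), Nos3 (-1.04 ± 0.31) and Cdkn1a (0.69 ± 0.11). Between DTR IP and DTR input 3 were higher in IP and 1 lower (18.6% and 20.5% of all), led by Smad7 (1.40 ± 0.12), Bcat2 (0.67 ± 0.16) and Cdkn1a (0.53 ± 0.11).

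Since Klf9 and Klf15 are induced by glucocorticoids, 8 glucocorticoid response genes were followed. After damage 1 was higher and 1 lower in IP, where 8.44% and 7.30% of all tested genes were, and 2 were higher and 0 lower in input, where 7.17% and 5.21% were. The median LFC was -0.09 in both. Per1, which is also a clock gene and responds to several stimuli, had LFCs of 0.92 ± 0.21 in IP and 1.28 ± 0.21 in input, Dusp1 had 1.04 ± 0.20 in input and Errfi1 had -0.35 ± 0.11 in IP. At an unadjusted p under 0.05 there were 5 of the 8 in IP and 4 of the 8 in input, against 28.4% and 23.2% of all tested genes. In control IP against control input 4 of the 8 were higher and 1 lower (19.3% and 20.7% of all tested genes), led by Dusp1 (2.43 ± 0.20), Ddit4 (1.40 ± 0.16) and Zbtb16 (1.32 ± 0.35), and in DTR IP against DTR input 3 were higher and 2 lower (18.6% and 20.5% of all), led by Dusp1 (1.97 ± 0.20), Ddit4 (1.35 ± 0.16) and Errfi1 (0.95 ± 0.11).

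Immediate early genes, a class to which Klf6 and Klf10 are often assigned, were followed as a further list. Of 14 such genes 7 were higher and 1 lower in IP after damage, where 8.44% of all tested genes were higher and 7.30% lower, and the median LFC was 0.50. In input 8 were higher and 0 lower, where 7.17% and 5.21% of all tested genes were, and the median LFC was 0.63. Egr1 had LFCs of 3.85 ± 0.40 in IP and 4.79 ± 0.40 in input, Jun had 2.75 ± 0.18 in IP, Atf3 had 2.55 ± 0.23 and 2.86 ± 0.23, and Fos had 3.00 ± 0.33 in input. Of the same 14, in control IP against control input 6 were higher and 2 lower (19.3% and 20.7% of all tested genes), led by Btg2 (2.24 ± 0.19), Zfp36 (2.02 ± 0.13) and Junb (1.01 ± 0.18). The DTR IP against DTR input comparison gave 4 higher and 3 lower (18.6% and 20.5% of all), led by Zfp36 (1.56 ± 0.13), Btg2 (1.46 ± 0.19) and Egr1 (-1.06 ± 0.40).

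The genes most like Klf13 and Klf5 over all 16 libraries were taken by Pearson's r of log2 normalized CPM among 16993 other tested genes. For Klf13 they were Zbtb7a (r = 0.995), Tnrc6c, Pbx2, Zfp362 and Arl2 (r = 0.991). For Klf5 they were F11r (r = 0.965), Fam132a, Hsd11b2, Misp and Tst (r = 0.953). The points share pools and fall into the 4 groups, so these values describe the order of groups more than differences between replicates.

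The 10 genes lie on different chromosomes (GRCm38). Klf6 is at chr13:5861482-5870394, Klf10 at chr15:38291463-38300706, Klf15 at chr6:90462576-90475238, Klf9 at chr19:23141226-23168134, Klf5 at chr14:99298691-99315036 and Klf13 at chr7:63886351-63938915. The annotation places other genes across part of Klf3, Klf7, Klf9 and Klf13, among them Gm27252 and E030018B13Rik on the other strand of Klf13 and Mir1192 within Klf9. Reads in those stretches are uncertain, since the strand setting of the counting is not given in the sources used here. Klf2, Klf4, Klf5, Klf6, Klf10 and Klf15 overlap no other annotated gene.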

How the data were processed

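The 16 libraries, 4 for each combination of genotype and fraction, were made with the SMART-Seq v4 kit. Values are CPM as the authors deposited them, from reads counted on genes by HTSeq. For the aligner, the study's methods name HISAT2 and the submitters' processing notes name TopHat, both with GRCm38, and which of them made the deposited values is not given in the sources used here. Of 50316 listed genes, 2587 were NA throughout. In each library 100% of the values above 0 were whole multiples of what 1 read is worth (within 0.01), which gave back the read counts. Library totals ran from 28089836 to 41966310 reads on genes, and precision from depth covers counting error only, since amplified reads are not independent molecules.

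The deposited CPM were put through quantile normalization across all libraries and taken to log2(CPM + 0.5), the scale of every fold change. A gene was tested if each of the 4 replicates of some group had 0.5 CPM or more, which held for 16994. Differences came from limma 3.58.1 (R 4.3.3) with 1 mean per group over all libraries, a mean-variance trend, two-sided tests and p-values adjusted over all of these genes (Benjamini-Hochberg). A call needed an adjusted p under 0.05. The stricter rule added an LFC of at least 2 (IP against input) or 1 (DTR against control) and a separation above 1.5. Separation divides the minimum of the higher group by the maximum of the lower group, on values raised to at least 1.08 CPM, the 10th percentile. Replicates were separate pools of mice. The fits were tested on simulated counts drawn independently for each library, which do not cover the pairing of the samples given below.

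Alternatives were other scalings (none beyond CPM, or library medians), pseudocounts of 0.1 and 1, no filter or one of 2 CPM, fits of the compared groups only, a replicate block, a length and GC correction with the block, and edgeR 4.0.16 and DESeq2 1.42.0 on the recovered counts. Each library of the compared groups was also left out in turn. The numbers paired the samples: input and IP of a number come from the same homogenate by the labels, and same-numbered libraries deviated together (correlations from 0.288 to 0.465 in control, from 0.312 to 0.491 in DTR, and from 0.291 to 0.559 between genotypes). All 10 members were named. From each list (other KLF and SP genes, upstream genes, protein partners, reported targets, glucocorticoid response genes, immediate early genes) up to 3 called genes with the largest absolute LFC per comparison were named. The members and lists were chosen with earlier results of these data known. Gene positions and lengths came from GENCODE M21 and promoters from RefSeq.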

Additional observations from a re-analysis of the deposited data

Results flagged for a closer look

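In 4 of the 40 sets of 4 libraries (10 genes in 4 groups) 1 library stood far from the other 3, past the 95% limit of Dixon's test, and chance alone gives about 1 in 20, or 2 of 40. Klf2 was highest in replicate 4 of DTR input at 34.0 CPM, against 20.4 to 22.7 CPM in the others, and in replicate 4 of DTR IP at 65.0 CPM, against a median of 44.8 CPM over the group. These libraries come from the same pool. Klf7 was highest in replicate 1 of DTR input at 43.9 CPM, against 31.9 to 32.4 CPM. Klf13 was highest in replicate 3 of DTR IP at 435 CPM, against 327 to 330 CPM, and without that library its LFC in DTR IP against control IP was 0.03. No explanation for these values was tested.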

How the results depend on the processing

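Of 540 results for the 10 genes recomputed under other scalings, filters, models and tools, 515 kept their direction and side of the threshold, 8 lost the call, 8 gained it and 9 changed sign, all of the last near 0 and uncalled. With a library left out, 428 of 480 kept both, 17 lost the call, 2 gained it and 33 changed sign. The calls that changed are given beside the results. The 4 calls gained with the replicate block (the pool, or the number between genotypes) were also gained with the block and the length and GC correction, and neither changed another call of the 10 genes. For DTR input against control input the number of the 10 genes called was 3 with no filter and 4 under median centring, unnormalized CPM, edgeR and DESeq2, and from 3 to 4 with a library left out. More genes are tested with no filter, and fewer libraries remain when 1 is left out. With the length and GC correction and the block, 4442 genes were called in DTR IP against control IP and 3463 in DTR input against control input, against 3956 and 3016 with the block alone and 2674 and 2104 with neither. For the difference between IP and input in the change after damage, 2 genes were called, against 1 on unnormalized CPM, 0 with a pseudocount of 0.1, with no filter and in edgeR, 40 with the block, 67 with the block and the length and GC correction, 49 in DESeq2 and from 0 to 6 with a library left out. The causes were not tested.

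The LFC of Klf10 in control IP against control input was 0.00907 with length and GC and the block, 0.022 in edgeR and 0.000874 in DESeq2, and from -0.11 to 0.079 with a library left out. The difference between IP and input turned to -0.021 (median centring), -0.046 (length and GC with the block), -0.053 (edgeR) and -0.027 (DESeq2) for Klf7, and with length and GC and the block to 0.0037 for Klf4 and 0.015 for Klf15. With a library left out it ranged from -0.23 to 0.11 for Klf2, from -0.19 to 0.043 for Klf3, from -0.16 to 0.083 for Klf4, from -0.17 to 0.010 for Klf6, from -0.12 to 0.10 for Klf7 and from -0.14 to 0.13 for Klf15, and the LFC of Klf3 in DTR IP against control IP from -0.12 to 0.11. Depth limited none of the 10 genes, each of which had at least 11.4 CPM in every library.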
